A study of Mus musculus with 2 samples.

Results

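Tandem pairs are sets of 2 neighbouring CTCF regions of full width that lie close together and apart from other such regions. They were taken from 1 CTCF ChIP-seq library of mouse CD4+CD8+ (double-positive) thymocytes, in which adjoining bound windows of 25 bp were joined into regions. Regions of 500 to 1000 bp on autosomes 1 to 19 were called full-width, and successive full-width regions with a gap of at most 5000 bp were chained. The pairs are the chains of exactly 2. The rule gave 2897 pairs with 5794 member regions, out of 27120 full-width regions and 51661 regions of all widths and chromosomes. Members were chosen by the widths and gaps of this same library, so these values describe the pairs and were not tested.

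The cells came from C57BL/6 mice of 4 to 8 weeks that were Rag1-/- and carried a rearranged TCRbeta transgene. The labels list 2 libraries from such mice, 1 immunoprecipitated for CTCF and 1 of input DNA, and the input was not analysed here. The promoter of the transgene and the number of mice are not given in the labels. Positions alone do not let the labelled cell stage be checked against markers. With 1 CTCF library there is no replicate and no test between samples. The intervals below cover counting error only and treat pairs as independent.

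CTCF is a DNA-binding protein with an array of zinc fingers that recognises a long, non-palindromic motif. Together with the ring-shaped cohesin complex it anchors chromatin loops, and the orientation of its motif bears on which way a loop extends. At some insulators, such as the imprinting control region of H19, several CTCF sites lie side by side. In lymphocytes, CTCF sites in the antigen receptor loci are known to shape contacts between distant gene segments.

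Most full-width regions stood alone. Of the 27120, 18827 (69.4%) had no other full-width region within the gap limit, 5794 (21.4%) were in pairs and 2499 (9.21%) were in chains of 3 or more. Pairs made up 2897 of the 3659 chains with more than 1 region, or 79.2% (95% exact binomial interval 77.8 to 80.5). Longer chains numbered 595 with 3 regions, 128 with 4, 34 with 5, 3 with 6 and 2 with 7.

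The bounds of the rule cut through frequent values on its low side. There were 1521 autosomal regions of 500 bp, the narrowest width kept, and 1160 of 475 bp, the widest width left out below it. At the upper bound, 68 regions had 1000 bp and 48 had 1025 bp. Of the members, 294 were 500 bp wide and 19 were 1000 bp wide. The gap limit also fell in a smooth part of its distribution, since 14 successive full-width regions lay 5000 bp apart and 15 lay 5025 bp apart.

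Gaps within pairs covered the whole permitted range with no single preferred distance. The median gap was 2125 bp (95% interval 2025 to 2225), with quartiles of 975 and 3525 bp. This median is set largely by the limit, since it was 1125 bp with a limit of 2500 bp and 3900 bp with one of 10000 bp. The distance between the centres of the members had a median of 2750 bp and ran from 600 to 5750 bp. Every one of the 200 gaps that the 25-bp grid allows occurred. The most frequent was 550 bp with 32 pairs, and the next most frequent gap had 28. An even spread over all gaps would give 14.5 pairs per gap. Short gaps were more frequent in general, so 550 bp is not read as a preferred distance.

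Short gaps were more frequent than long ones. The counts per 500 bp, from the shortest to the longest gaps, were 363, 380, 332, 311, 267, 260, 258, 237, 250 and 239 pairs. The decline ran mainly over the first 2500 bp and was shallow after that. Within the first 1000 bp, counts per 100 bp stayed between 59 and 87, and the 68 pairs at 25 to 100 bp were within that range. Among all successive full-width regions the counts went on falling past the limit, with 350 at 5025 to 5500 bp and 238 at 9525 to 10000 bp.

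**Figure D1:**
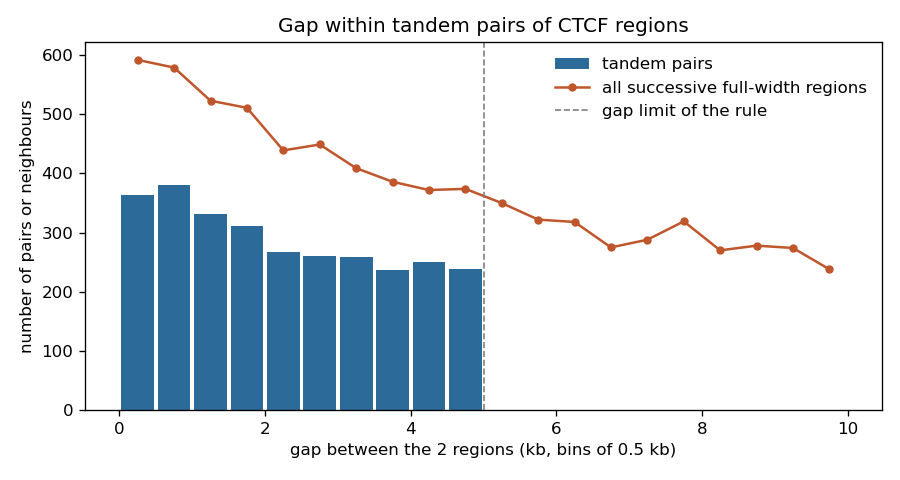
Number of tandem pairs (blue bars) by the gap between their members, in bins of 0.5 kb, and number of all successive full-width regions (orange points) up to 10 kb. The dashed line is the limit of 5 kb; pairs fall from 363 and 380 in the first bins to 239 in the last, and the neighbour counts continue to decline beyond the limit to 238.

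Gaps in longer chains were spread in nearly the same way. The median was 2125 bp in pairs and 2150 bp (2025 to 2275, 1737 gaps) in chains of 3 or more. Gaps of at most 500 bp made up 12.5% (11.3 to 13.8) of pairs and 13.2% (11.6 to 14.9) of gaps in longer chains. Gaps of at most 100 bp made up 2.35% (1.83 to 2.97) of pairs and 3.22% (2.44 to 4.17) of gaps in longer chains. These intervals overlap for each measure.

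At the short end, 14 pairs were separated by a single 25-bp window. The first 5 in genome order were on chromosome 1 (169213746 to 169215020), chromosome 2 (26008774 to 26010023 and 158141974 to 158143198), chromosome 3 (79431269 to 79432568) and chromosome 5 (149769771 to 149771245). Members of the first were both 625 bp wide and those of the third both 600 bp wide, whereas the second joined 525 and 700 bp. Whether such a pair is a pair of sites or a single site with a dip in signal cannot be told from positions. At the long end, 10 pairs had a gap of exactly 5000 bp. Among the first 5 of these, 1 on chromosome 3 (101292069 to 101298568) combined members of 525 and 975 bp, a difference of 450 bp.

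Members of a pair were not closely matched in width. The median absolute difference was 50 bp (50 to 75), which is 2 windows, beside a mean of 84.6 bp (SD 78.7 bp over the pairs). In 320 pairs (11.05%, 9.93 to 12.2) the widths were equal, in 1461 (50.4%) they differed by at most 50 bp, and in 298 (10.3%) by at least 200 bp. The largest difference was 475 bp. Across the 2897 pairs the widths of the lower-coordinate and the higher-coordinate member had Pearson's r = 0.10 and Spearman's rho = 0.11, a weak relation between points that share 1 library.

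Neighbours farther apart had a similar share of equal widths. Of pairs, 11.05% had equal widths, and of 2932 successive full-width regions over 5 and up to 10 kb apart 12.3% (11.1 to 13.6) did. Over 10 kb the share was 11.5% (11.04 to 11.9, 19535 neighbours). The mean absolute difference was 84.6 bp in pairs, 82.6 bp at over 5 to 10 kb and 81.2 bp over 10 kb. Pearson's r was 0.10 in pairs, 0.10 at over 5 to 10 kb and 0.05 over 10 kb. The intervals of the share of equal widths overlap for all 3 classes. Differences of at least 200 bp occurred in 10.3% (9.20 to 11.45) of pairs and 10.2% (9.09 to 11.3) of neighbours at over 5 to 10 kb. Over 10 kb this share was lower, at 8.56% (8.17 to 8.96), and its interval did not overlap that of pairs. Over 100 kb it was 5.88% (5.20 to 6.61). The correlation was higher in pairs than in neighbours over 10 kb apart, weak in both, and close to that at over 5 to 10 kb.

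**Figure D2:**
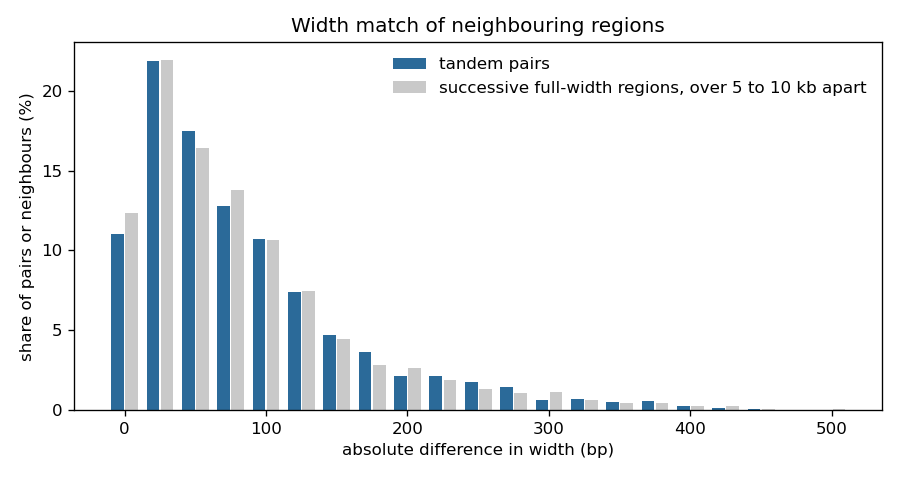
Share of tandem pairs (blue, 2897) and of successive full-width regions over 5 to 10 kb apart (grey, 2932) by absolute difference in width, in steps of 25 bp. The profiles lie close together, with equal widths in 11.05% of pairs and 12.3% of the more distant neighbours.

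Within the pairs, the correlation between widths was numerically largest at short gaps. Pearson's r was 0.14 at gaps of 25 to 1000 bp (743 pairs), 0.12 at 1025 to 2000 bp, 0.06 at 2025 to 3000 bp, 0.09 at 3025 to 4000 bp and 0.05 at 4025 to 5000 bp (489 pairs). All are weak correlations without intervals, and they did not fall steadily with the gap, so no order is read from them. The share of equal widths was 10.6% (8.51 to 13.1) in the shortest class and 10.6% (8.04 to 13.7) in the longest. Differences of at least 200 bp occurred in 12.5% (10.2 to 15.1) of pairs in the shortest class and in 9.61% (7.15 to 12.6) in the longest.

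Equal widths fell on the widths that were common in any case. Of the 320 equal pairs, 91 were 625 bp, 66 were 650 bp and 54 were 600 bp wide. Only 7 equal pairs were wider than 700 bp. The most frequent member width was 625 bp, with 1014 members. In 1238 pairs (42.7%) both members were 575 to 675 bp wide, in 131 (4.52%) both were 500 to 550 bp and in 98 (3.38%) both were 700 to 1000 bp. In 139 pairs (4.80%) a member of 500 to 550 bp stood beside one of 700 to 1000 bp.

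**Figure D3:**
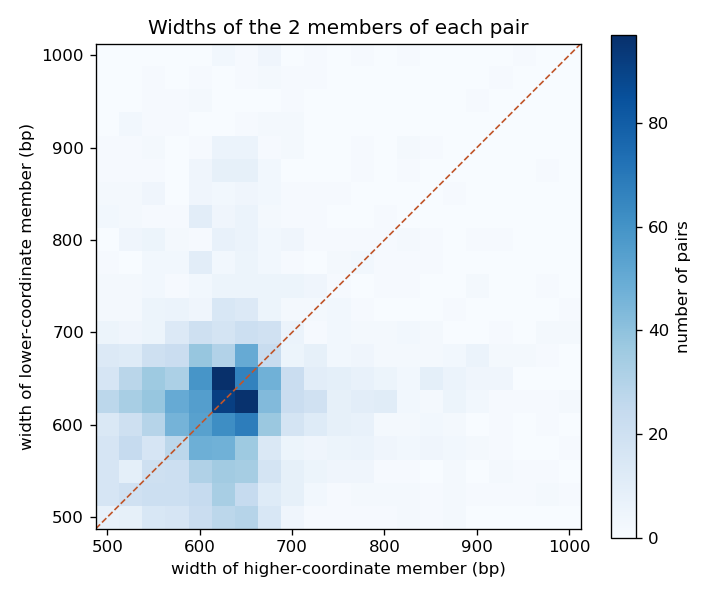
Number of pairs for each combination of the width of the lower-coordinate member (vertical axis, bp) and of the higher-coordinate member (horizontal axis, bp), in steps of 25 bp. Pairs gather around the modal width of 625 bp in both directions and not along the dashed line of equal widths.

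Neither side of a pair was wider as a rule. The higher-coordinate member was the wider in 1311 pairs (45.3%, 43.4 to 47.1) and the lower-coordinate member in 1266 (43.7%, 41.9 to 45.5). The mean difference, higher minus lower, was 1.47 bp (SD 115.5 bp). The strand of the CTCF motif in each member was not analysed here, so width by motif orientation cannot be given.

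Members of pairs included more of the widest regions than single regions did. Widths of 700 to 1000 bp made up 15.9% (15.0 to 16.9) of members and 11.3% (10.8 to 11.7) of the 18827 single regions. In chains of 3 or more the share was 17.6% (16.1 to 19.2). Widths of 500 to 550 bp made up 19.1% (18.05 to 20.1) of members and 22.8% (22.2 to 23.4) of single regions. The median was 625 bp in all these classes. Mean widths were 632 bp in pairs, 639 bp in longer chains and 619 bp (SD 80.1 bp) in single regions, and members had an SD of 86.1 bp.

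The 5 pairs with the largest summed width were on chromosomes 11, 15, 2, 13 and 2. The widest, on chromosome 11, joined regions of 1000 bp (100620621 to 100621620) and 950 bp (100622646 to 100623595) across a gap of 1025 bp. The pair on chromosome 15 joined 975 and 925 bp (74365755 to 74368254) with a gap of 600 bp that held 1 further region of another width. On chromosome 13, members of 950 and 900 bp (59941721 to 59944645) were 1075 bp apart. The pairs on chromosome 2 had 875 and 975 bp (25079774 to 25084648), and 1000 and 825 bp (167500474 to 167504623).

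In most pairs the gap held no other region. In 2547 pairs none lay between the members, and in 350 (12.1%, 10.9 to 13.3) at least 1 region outside the width bounds did. The share was 7.13% when windows up to 100 bp apart were joined, and 17.5% with a lower width bound of 600 bp. There were 453 such regions, with a median width of 75 bp, and 5 of them were wider than 1000 bp. Of the 453, 249 (55.0%, 50.3 to 59.6) were at most 200 bp from the nearer member. A gap of over 4000 bp held another region in 15.95% (12.8 to 19.5) of pairs, and one of at most 1000 bp did in 10.6% (8.51 to 13.1). In the classes between, the share was 10.3% at 1025 to 2000 bp, 12.1% at 2025 to 3000 bp and 12.7% at 3025 to 4000 bp. The intervals of the shortest and longest classes overlap narrowly, which does not show that the shares are alike. The long gaps offered several times the room.

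Short regions were also found just outside the pairs. Among the 2455 pairs with a gap of over 600 bp, a region of another width lay within 200 bp on the inner side of 3.75% (3.23 to 4.32) of members and on the outer side of 2.59% (2.16 to 3.07). For single regions it was 2.41% (2.25 to 2.57) of sides. Within 5 kb outside the pair, a region of another width was listed for 27.2% (25.6 to 28.8) of pairs, and within 5 kb on either side of 21.1% (20.5 to 21.6) of single regions. Such regions numbered 0.0686 per kb of gap, 0.0367 per kb within 5 kb outside the pairs and 0.0289 per kb around single regions. These densities cover unlike distances from a member, since gaps had a mean of 2278 bp and each flank was 5 kb. They were not matched for distance, so they do not show that gaps were denser at equal distance. The labels and the file do not give what a short region stands for, and without peak heights weak binding cannot be told from background there.

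The distance from a pair to the next chain varied widely. By the rule no chain could be closer than 5025 bp, the smallest distance the grid allows past the limit. The median distance to the nearest other chain was 16400 bp (15700 to 17075), with quartiles of 9350 and 31375 bp. With a gap limit of 2500 or 10000 bp the median distance was 12650 or 23400 bp. The gap of a pair and its distance to the nearest chain had Spearman's rho = -0.02 across 2897 pairs.

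Neighbouring chains were nearer to pairs than to single regions. A chain was found within 10 kb of 27.6% (26.0 to 29.3) of pairs and of 23.1% (22.5 to 23.7) of single regions. For chains of 3 or more the share was 32.4% (29.1 to 35.9). The median distance was 16400 bp in pairs, 14900 bp (13725 to 16125) in longer chains and 19575 bp (19175 to 19925) in single regions. Distances over 100 kb occurred in 3.62% (2.97 to 4.37) of pairs and in 7.35% (6.98 to 7.73) of single regions.

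**Figure D4:**
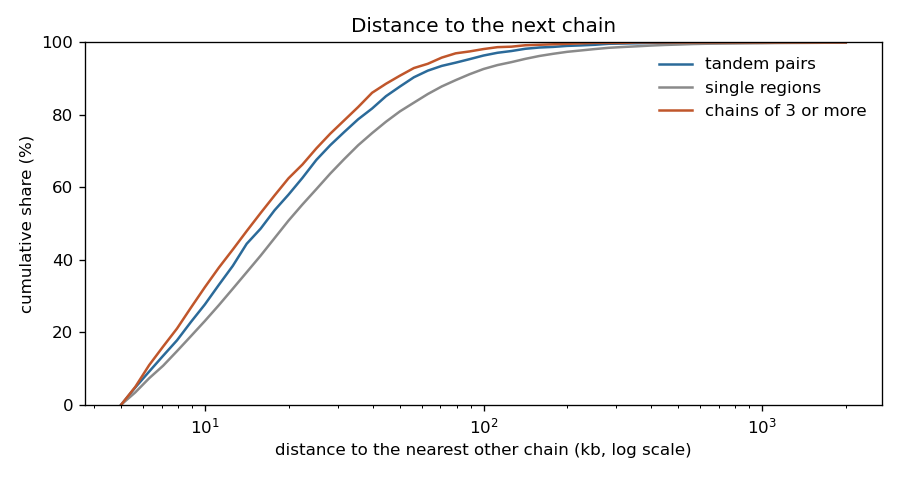
Cumulative share of tandem pairs (blue), single regions (grey) and chains of 3 or more (orange) by distance to the nearest other chain, on a log axis in kb. The pairs lie between the other classes, with medians of 16400 bp in pairs, 14900 bp in longer chains and 19575 bp in single regions.

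The low-coordinate and high-coordinate sides of the pairs were alike. The nearer chain lay on the high side in 1468 pairs (50.7%, 48.8 to 52.5) and on the low side in 1423 (49.1%, 47.3 to 51.0). The chain that followed a pair was a single region in 81.4% of cases, another pair in 13.9% (12.6 to 15.2) and a longer chain in 4.70%. After single regions a pair followed in 12.7% (12.2 to 13.1). At least 1 neighbouring chain was itself a pair for 739 pairs (25.5%, 23.9 to 27.1).

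Isolated pairs were rare. In 102 pairs (3.52%) both sides were free of other full-width regions for over 100 kb. A further 5 pairs were the first or last chain of their chromosome and had a neighbour on 1 side only. Of the others, the most isolated was on chromosome 18 (16370132 to 16375806), with 658 kb to the chain before it and 605 kb to the one after it, and with members of 600 and 575 bp at a gap of 4500 bp. It was followed by pairs on chromosome 14 (106297820 to 106302494, 471 and 597 kb), chromosome 5 (131903796 to 131906495, 419 and 2576 kb), chromosome 4 (87013811 to 87015210, 410 and 419 kb) and chromosome 18 (59237557 to 59241781, 380 and 1072 kb). The pair on chromosome 4 had the smallest gap of the 5, at 125 bp, and was tightly joined although remote from others. None of the 5 held another region in its gap.

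At the other extreme, 3 pairs were 5025 bp from the next chain and so just escaped the rule for longer chains. They were on chromosome 4 (118911536 to 118914735), chromosome 7 (52323030 to 52328029) and chromosome 11 (53687321 to 53688670). The pair on chromosome 7 had the next chain on its other side at 5700 bp. The next nearest, on chromosomes 1 (186086721 to 186090445) and 3 (107264919 to 107269993), were 5050 bp away.

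Pairs were spread unevenly along the genome. The autosomes held 1.17 pairs per Mb (95% exact Poisson interval 1.13 to 1.22), counted up to the last listed position of each. Chromosome 11 held 274 pairs, 2.25 per Mb (1.99 to 2.53). Chromosome 17 came after it at 1.58 (1.33 to 1.85), and then chromosome 7 at 1.46 (1.28 to 1.67). The interval of chromosome 11 overlapped none of the other autosomes. Chromosomes 14 and 13 were the lowest, with 0.721 (0.580 to 0.886) and 0.723 (0.579 to 0.892).

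Part of this order followed the density of full-width regions. Chromosome 11 had 18.3 full-width regions per Mb, against 10.98 on all autosomes. Over the 19 autosomes, pairs per Mb and full-width regions per Mb had Spearman's rho = 0.95, as a fixed gap limit implies. The share of full-width regions that were in pairs was 24.6% (22.8 to 26.4) on chromosome 11 and 24.0% (21.6 to 26.5) on chromosome 15, and it was lowest at 16.6% (14.4 to 18.9) on chromosome 14, with 16.8% (14.6 to 19.2) on chromosome 13. This share had rho = 0.52 with the density of full-width regions over 19 chromosomes, and 0.44 without chromosome 11. Chromosome 3 combined the lowest density, 7.97 per Mb, with a share of 22.0% (19.8 to 24.4).

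**Figure D5:**
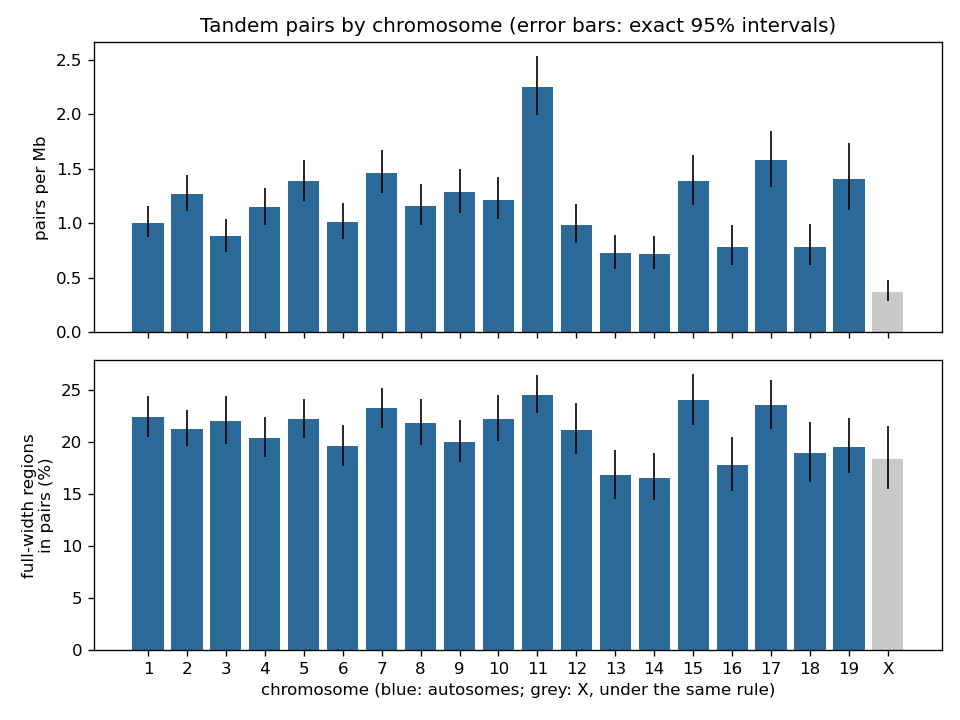
Tandem pairs per Mb (top) and share of full-width regions that lie in pairs (bottom, %) on each autosome (blue) and, under the same rule, on the X (grey). Error bars are exact 95% Poisson and binomial intervals; chromosome 11 has 2.25 pairs per Mb, and the shares run from 16.6% on chromosome 14 to 24.6% on chromosome 11.

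The inner structure of pairs varied less between chromosomes. Median gaps were 1625 bp (975 to 2675, 77 pairs) on chromosome 16 at the lowest and 2750 bp (1900 to 3150, 71 pairs) on chromosome 18 at the highest, and these intervals overlapped. The median absolute width difference was 50 or 75 bp on every autosome. The median distance to the nearest chain was shortest on chromosome 11, at 13775 bp, and longest on chromosome 3, at 19812.5 bp.

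Many bins of 1 Mb held no pair. Of 2481 bins, counted from the first coordinate of each autosome, 1161 (46.8%) held at least 1 pair and 159 held at least 5. The share of bins with any full-width region is not given here. The spread of pairs is therefore not set apart from that of full-width regions. The fullest was 80000001 to 81000000 on chromosome 10, with 14 pairs among its 75 full-width regions. The next held 11 pairs each, on chromosome 1 (88000001 to 89000000, 39 full-width regions), chromosome 7 (28000001 to 29000000, 47) and chromosome 17 (29000001 to 30000000, 54). The median distance of a pair to the one before it on the chromosome was 252788 bp, with quartiles of 93256 and 720694 bp.

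Exact matches in both widths and gap were rare at close range. Over all autosomes, 420 pairs matched another pair in this way, among 2680 distinct combinations of widths and gap. A couple of pairs that agreed in both widths and in the gap occurred 12 times on the same chromosome, and 1 of these couples lay within 1 Mb. It was on chromosome 11, where members of 625 and 625 bp with a gap of 3500 bp began at 88850646 and again at 88945746, 95.1 kb further on. When differences of 25 bp were allowed in each measure, 11 couples lay within 1 Mb. They included 1 in the Tcra/Tcrd window, where pairs with a gap of 4300 bp began at 52810195 (700 and 600 bp) and at 52958195 (675 and 575 bp), 148 kb apart. Whether the DNA of these couples is alike was not analysed here.

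Named loci were examined in 19 windows of mm9 with rounded bounds from general knowledge, and a pair was placed in a window by its midpoint. No annotation of mm9 was used, so pairs are not assigned to genes, exons or promoters. Of the windows, 9 held a total of 17 pairs. No pair lay in the windows of Tcrg, Igk, Igl, Rag1/Rag2, Bcl11b, Runx1, Ets1, Hoxa, Hoxd or Hbb. In that order, these windows held 7, 8, 2, 5, 5, 10, 1, 6, 6 and 3 full-width regions. With so few regions, the lack of a pair is not read as a trait of these loci. Tcrg, Igk and Bcl11b each held 1 chain of 3 or more.

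The Tcra/Tcrd window, which holds the T cell receptor alpha and delta genes, had 7 pairs. Its 120 full-width regions formed 82 single regions, the 7 pairs and 8 longer chains, so 11.7% of them were in pairs. Of all full-width regions, 69.4% were single, 21.4% were in pairs and 9.21% were in longer chains. The lower share in pairs is therefore not read as fewer close neighbours in this window. The pairs began at 52522320, 52625845, 52810195, 52958195, 53661545, 54157395 and 54396195. Their gaps ran from 725 to 4300 bp, with a median of 2675 bp. The pair from 53661545 joined members of 625 and 625 bp across 2675 bp and had the previous chain at 5.35 kb and the following one at 7.825 kb. The pair from 52958195 was followed by 236 kb with no other full-width region. The last, from 54396195, had the shortest gap of the window and 2 short regions inside it.

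The Igh window, the immunoglobulin heavy chain locus, had 93 full-width regions but 1 pair. Its members of 650 bp (114723161 to 114723810) and 625 bp (114725761 to 114726385) were 1950 bp apart. The chain before it lay at 260 kb and the one after it at 89.9 kb. Apart from this pair, Igh had 88 single regions and 1 longer chain, and 2.15% of its full-width regions were in pairs. In the Tcrb window, the T cell receptor beta locus, 1 pair of 600 and 550 bp (41005421 to 41011520) had a gap of 4950 bp, close to the limit. The mice carried a TCRbeta transgene, and its part in the signal of this window was not tested.

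Among the windows of thymocyte genes, 3 held 1 pair each. In the window of Cd4, the co-receptor of helper T cells, members of 650 bp (124880571 to 124881220) and 625 bp (124881796 to 124882420) lay 575 bp apart. In the window of Cd8a/Cd8b1, the co-receptor of cytotoxic T cells, members of 525 and 675 bp (71299146 to 71301695) lay 1350 bp apart. In the window of Cd3e/d/g, which pass on the signal of the T cell receptor, members were equal at 625 bp (44774776 to 44775400 and 44777401 to 44778025) with a gap of 2000 bp. None of these 3 held another region in the gap, and the nearest chains lay at 12.95, 17.65 and 29.05 kb.

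The window of Myc, a proto-oncogene that encodes a transcription factor, had 3 full-width regions, of which 2 formed a pair. Its members of 625 bp (61814630 to 61815254) and 575 bp (61816830 to 61817404) were 1575 bp apart. The single region lay 7.55 kb before the pair, and 428 kb without a full-width region followed it. Regions of other widths were not counted in that stretch.

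The H19/Igf2 window, an imprinted gene pair, had 2 pairs that held 4 of its 6 full-width regions. The first joined 900 bp (149718405 to 149719304) and 850 bp (149723480 to 149724329) across 4175 bp. The second joined 1000 bp (149765955 to 149766954) and 775 bp (149767405 to 149768179) across 450 bp. All 4 members were in the widest class, which held 15.9% of members of all pairs. The pairs were next to each other, 41.6 kb apart.

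The Pcdha/b/g window, the clustered protocadherins, also had 2 pairs next to each other. Members of 600 and 600 bp (37910882 to 37911481 and 37915032 to 37915631) had a gap of 3550 bp. The following pair, 5.15 kb on, had members of 800 and 550 bp (37920782 to 37925781) and a gap of 3650 bp. The chain before the first pair was at 8.925 kb and the chain after the second at 5.725 kb.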

How the data were processed

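The submitters' processing notes name Bowtie for alignment and mm9 as the build. How peaks were called, at what threshold and whether input reads entered the call is not given in the sources used here. In the file that the authors deposited, 912174 windows of 25 bp stand as chromosome, start and end, with no count, height or score, so depth is unknown. Starts were read as counted from 0 and are printed counted from 1.

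Windows with a gap of 0 bp were joined, and the chains were built as the report describes. Regions of other widths did not break a chain. Intervals of shares are exact binomial (Clopper-Pearson), those of medians are binomial order-statistic intervals and those of densities are exact Poisson, all at 95%. The chain step was tested on simulated data and found 1319 of 1319 planted pairs. Width classes were set around the most frequent width, after it was seen. Named pairs were the 5 most extreme in gap, summed width, isolation and closeness, ties going by chromosome and start, couples with the same widths and gap within 1 Mb, and all pairs in 19 locus windows. Couples that agreed within 25 bp and the fullest bins were added after the data were seen. The members and lists were chosen with earlier results of these data known. No test was made, since the library has no replicate and the rule uses the positions it describes. The scripts ran under Python 3.11.15 with SciPy 1.17.1, pandas 2.3.3, NumPy 2.4.6 and, for plots, matplotlib 3.10.9.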

Additional observations from a re-analysis of the deposited data

Results flagged for a closer look

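The rule covers autosomes, and the X was left out of the values above apart from the chromosome plot. Applied to the X, it gave 62 pairs among 674 full-width regions, a signal outside the main measurement. This was 0.373 pairs per Mb (95% exact Poisson interval 0.286 to 0.478) on the X, against 1.17 on the autosomes. Full-width regions as a whole were also sparser there, at 4.05 per Mb on the X and 10.98 on the autosomes. The share of full-width regions in pairs was 18.4% (15.5 to 21.5) on the X and 21.4% (20.9 to 21.9) on the autosomes. The median gap was 2525 bp (2200 to 3075) on the X and 2125 bp on the autosomes.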

How the results depend on the processing

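The number of pairs stayed within 1.5 times of 2897 in 5 of 6 settings. It was 1785 with a lower width bound of 600 bp, of which 1536 had the same positions. Membership changed more than the count with the gap limit. Only 2096 of 3426 pairs at 10000 bp and 1653 of 2045 at 2500 bp were in the main set. The shared pairs were 2681 of 2846 with windows joined up to 100 bp apart and 2852 of 2998 with no upper width bound. They were 2547 of 2735 when any other region broke a chain. A gap limit of 2500 or 10000 bp gave a median gap of 1125 or 3900 bp and a median distance to the next chain of 12650 or 23400 bp, as follows from the limit itself. With 10000 bp, 14.9% of pairs held another region in the gap. The bound of 600 bp gave 16.1% equal widths, a median distance to the next chain of 20125 bp and 17.5% of gaps with another region. Joining windows up to 100 bp apart gave 7.13% of such gaps. Letting any other region break a chain gave 0% by construction and a median distance to the next chain of 14875 bp. The other 30 values of 42 lay within the counting intervals of the main setting or, for the number of pairs, moved by less than 1.5 times. Among them, the median width difference was 75 bp with windows joined up to 100 bp apart and with no upper width bound. That is the upper end of its main interval, 50 to 75 bp. Chromosome 11 kept 1.84 to 1.95 times the autosomal density of pairs. A stricter peak threshold could not be applied without peak values. No paired analysis was possible because there is 1 CTCF library. Without depth or heights, sites that were not listed cannot be called unbound.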
